A study of Homo sapiens with 6 samples.

Results

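ATP-binding cassette (ABC) genes were taken from the deposited table as every protein-coding gene whose symbol begins with ABC, a letter from A to G and a number, except ABCA1 and ABCG1. This gave 43 genes of 58735, and they lay on 16 chromosomes. RNA sequencing had been carried out on 3 libraries labelled DDX39B overexpression and 3 libraries labelled control, with the genotype given as WT. All 6 carry the name of SW480, a human colorectal adenocarcinoma cell line, which was grown in L-15 medium with 10% FBS without added CO2. The labels name no agent, vector or clone, and do not say whether the libraries of a group came from separate cultures, so p-values measure the spread between these libraries, which may be technical.

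ABC proteins couple the binding and breakdown of ATP to movement of a substrate across a membrane. The A family moves lipids, and the B and C families hold the best known drug efflux pumps. The B family also has transporters of mitochondria and lysosomes. The D family serves peroxisomes and lysosomes, and the G family exports sterols and drugs. The E and F families have the ATP-binding parts without a membrane part and act on ribosomes and translation. In the gut epithelium, apical pumps such as ABCB1, ABCC2 and ABCG2 return foreign compounds and conjugates to the lumen, while ABCC1 and ABCC3 sit on the opposite side of the cell.

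DDX39B itself ran counter to the labels. It measured 15.02, 13.87 and 14.03 FPKM under the overexpression label, against 39.3, 34.6 and 41.9 FPKM under the control label (2.70-fold lower, limma adjusted p = 6.93e-06). The groups are therefore named by their labels only, and every direction below follows these labels. FPKM are fragments per kilobase of gene length, scaled by a total for each library. Read totals worked out from the table were 16963075 to 17463697 per library. Of 12 markers of colorectal epithelium, 7 reached the tested level and all 7 passed the threshold as higher. The summed level of the 12 was 1972 to 1996 FPKM under the overexpression label and 357.7 to 430.3 FPKM under the control label. Single markers differed by more than the sum. KRT19 had 62586 reads under the overexpression label and 29 under the control label. EPCAM was 63.0-fold and CDH1 38.7-fold higher under the overexpression label, against 3.80-fold for KRT8 and 3.02-fold for KRT18. CDX2 and GPA33 had 0 reads under the control label and CDX1 in all 6, whereas KRT8 and KRT18 were abundant in both groups. KRT20, which was not tested, ran against the list with 6 reads under the overexpression label and 80 under the control label. Of 6 hepatocyte markers, 0 reached the tested level, and their sum was 0.0393 to 0.162 FPKM under the overexpression label and 0.0189 to 0.170 FPKM under the control label. TTR and APOA2 were at 0 throughout. The 8 leukocyte markers summed to 1.39 to 2.24 FPKM under the overexpression label and 0.658 to 1.20 FPKM under the control label, with CD3D and MS4A1 at 0. The 6 fibroblast markers summed to 1.54 to 1.67 FPKM under the overexpression label and 4.29 to 8.20 FPKM under the control label, and COL3A1 and DCN had 0 reads under the overexpression label. LUM, another fibroblast marker, had 29 reads under the overexpression label and 1 under the control label. The 5 endothelial markers summed to 1.04 to 1.43 FPKM under the overexpression label and 35.9 to 50.5 FPKM under the control label, nearly all of it ESAM, while CDH5 had 0 reads under the overexpression label and 42 under the control label and KDR 0 in both. VWF, of the same list, went the other way, with 326 reads under the overexpression label and 24 under the control label. The part of these marker differences in the results on ABC genes was not tested.

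The bases before the start of 4 genes are shown because, of the members tested, ABCC2, ABCG2 and ABCA3 were lower by the largest log2 fold changes and ABCC4 was higher by the largest under the overexpression label. The sequences are the 250 bases upstream of a RefSeq start (GRCh38.p14), read 5′ to 3′ on the strand of the gene. Capitals mark matches on either strand to 6 short motifs, which may overlap. The GC box was searched as GGGCGG. The CCAAT box was searched by the letters of its name, and the TATA box of many core promoters as TATAAA. The core of the antioxidant response element, through which NRF2 acts, was searched as TGACNNNGC. The E-box was searched as CACGTG, and the core bound by the dimer of AHR with ARNT was searched as GCGTG. They lie at chr10:99782390-99782639 on the plus strand for ABCC2, chr4:88231627-88231876 on the minus strand for ABCG2, chr16:2340729-2340978 on the minus strand for ABCA3 and chr13:95301452-95301701 on the minus strand for ABCC4. For ABCG2, RefSeq lists 5 starts, and the one nearest the deposited gene end was used.
ABCC2: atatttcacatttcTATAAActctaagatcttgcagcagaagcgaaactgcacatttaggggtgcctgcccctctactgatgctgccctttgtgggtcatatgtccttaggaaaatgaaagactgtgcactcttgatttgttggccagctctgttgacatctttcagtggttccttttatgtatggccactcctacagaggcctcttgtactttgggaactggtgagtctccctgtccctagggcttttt
ABCG2: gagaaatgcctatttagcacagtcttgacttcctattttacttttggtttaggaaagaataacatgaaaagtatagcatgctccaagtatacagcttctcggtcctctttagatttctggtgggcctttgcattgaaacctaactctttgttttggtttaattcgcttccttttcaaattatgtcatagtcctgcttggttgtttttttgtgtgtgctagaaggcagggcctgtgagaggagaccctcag
ABCA3: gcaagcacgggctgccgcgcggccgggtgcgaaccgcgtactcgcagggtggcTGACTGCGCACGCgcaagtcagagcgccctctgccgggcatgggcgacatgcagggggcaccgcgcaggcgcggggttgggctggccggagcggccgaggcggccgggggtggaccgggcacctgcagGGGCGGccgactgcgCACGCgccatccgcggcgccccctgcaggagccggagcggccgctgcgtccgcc
ABCC4: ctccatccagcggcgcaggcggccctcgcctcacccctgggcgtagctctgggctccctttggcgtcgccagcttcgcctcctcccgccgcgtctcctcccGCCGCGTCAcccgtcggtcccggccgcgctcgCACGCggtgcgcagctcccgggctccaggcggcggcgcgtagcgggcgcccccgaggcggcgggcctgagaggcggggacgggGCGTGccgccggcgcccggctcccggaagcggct

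The base composition of these windows differed widely. G and C made up 45.6% of the ABCC2 window and 40.0% of the ABCG2 window, but 79.2% of the ABCA3 window and 80.4% of the ABCC4 window. ABCC2 held 1 CpG and 1 match to the TATA box letters, which lies at the end of the window far from the start. The ABCG2 window held 2 CpGs and no match to any of the 6 motifs. It covers 1 of the 5 listed starts, 304 bases from the deposited gene end. The other ABCG2 starts were not examined, so these values do not describe them. ABCA3 had 38 CpGs, 1 GC box, 1 antioxidant element core and 2 AHR-ARNT cores, and ABCC4 had 42 CpGs, 1 antioxidant element core and 2 AHR-ARNT cores. Of the 43 members, 34 had a RefSeq entry. The median G and C content was 65.2% in the 19 of these that were tested and 48.8% in the 15 that were not, beside 58% over all 35116 windows of the table. The antioxidant element core was present in 7 of 34 members (20.6%) and in 10.9% of all windows, the AHR-ARNT core in 13 (38.2%) and 32.2%, and the GC box in 16 (47.1%) and 42.6%. The TATA box was present in 5 members (14.7%) and in 10.7% of all windows, the E-box in 5 (14.7%) and 6.34%, and the CCAAT box in 6 (17.6%) and 32%. Matches were counted anywhere in the window, whatever their distance from the start. A match describes the letters of a window and not the binding of a factor.

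More of the expressed ABC genes were lower than higher under the overexpression label. The test took genes whose 6 libraries averaged 1 FPKM or more, and 23 of the 43 members did. Of these, 14 were lower, 6 were higher and 3 did not pass an adjusted p of 0.05 (limma on log2(FPKM + 1), Benjamini-Hochberg over 13972 genes). Differences under 1.5-fold made up 4 of the lower and 4 of the higher. With FPKM rescaled to summed reads, with or without mitochondrial reads, 11 were lower and 6 higher, and with voom on the reads 12 and 6. The groups were far apart throughout the transcriptome, so these counts are read against all tested genes. Genes called in either direction were 87.0% of the tested members and 76.8% of all tested genes. The share called lower was 60.9% of the members and 39.3% of all genes, and the share called higher 26.1% and 37.5%. At a ratio of mean FPKM of at least 2, 7 members were lower (30.4%, beside 19.1% of all genes) and 1, ABCC4, was higher (4.35%, beside 20.0%). The groups were fully separate in FPKM for 20 of the 23 members (87.0%, beside 80.1%). The median log2 fold change was -0.28 over the tested members and -0.03 over all tested genes. With no filter the medians were -0.01 over the members and 0.02 over all genes, with FPKM rescaled to summed reads -0.18 and 0.07, without mitochondrial reads -0.16 and 0.09, with voom -0.19 and 0.08, and with quantile scaling -0.20 and -0.02. The threshold on the mean lay between ABCB9 (0.888 FPKM) and ABCB6 (1.04 FPKM). In bulk RNA, fewer cells of a type and less RNA per cell cannot be told apart.

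Summed over the 43 genes, the family measured 166.9, 168.5 and 170.4 FPKM under the overexpression label, against 279.6, 278.3 and 276.3 FPKM under the control label. Their SD was 1.77 FPKM under the overexpression label and 1.67 FPKM under the control label (n = 3 each), and the family total was 1.65-fold lower under the overexpression label. It was 1.66-fold lower on the TPM scale and 1.53-fold lower when FPKM was rescaled to summed reads. The net difference of -109.5 FPKM was carried by few genes. The differences of ABCC2, ABCA2 and ABCC1 together equalled 66.8% of it, and with ABCF1 81.2%. Higher genes such as ABCC3 (4.27 FPKM) and ABCC4 (4.05 FPKM) offset lower ones in the net, so these are not shares of the total decrease. The order of levels also differed between the groups. In the overexpression-labelled libraries ABCC3 (22.5 ± 0.71 FPKM), ABCF1 (19.95 ± 0.15 FPKM), ABCE1 (15.8 ± 0.70 FPKM) and ABCC1 (14.4 ± 0.57 FPKM) were the 4 highest members. In the control-labelled libraries the 4 highest were ABCC1 (36.5 ± 3.3 FPKM), ABCF1 (35.7 ± 2.4 FPKM), ABCA2 (34.3 ± 5.1 FPKM) and ABCC2 (26.6 ± 3.2 FPKM; SD, n = 3 each). Of these, ABCC1, ABCF1 and ABCA2 lay within their spread of each other.

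**Figure D1:**
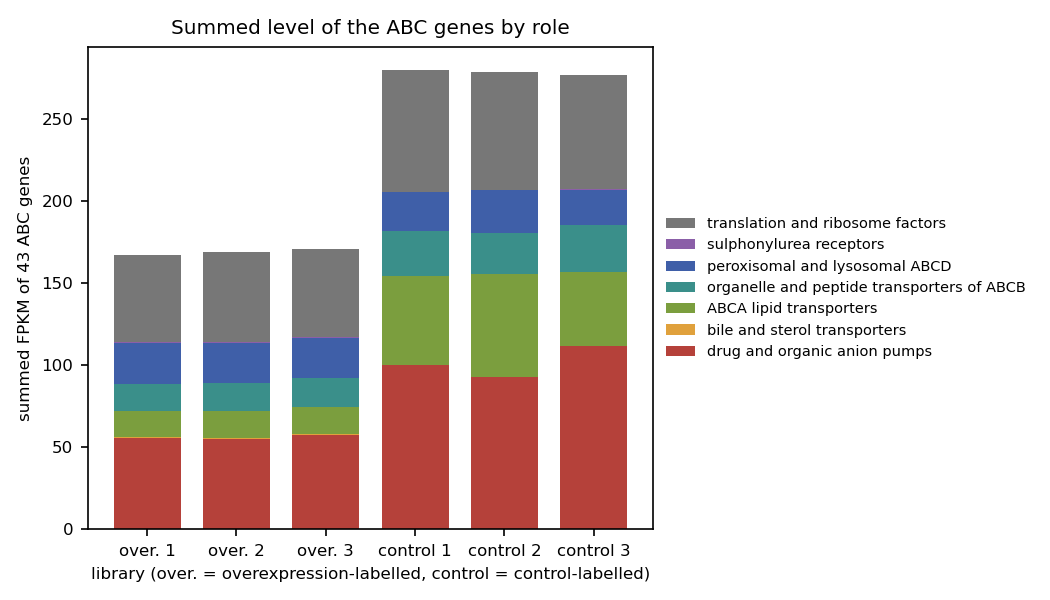
Summed FPKM (vertical axis) of the 43 ABC genes in each library, stacked by role, with the 3 overexpression-labelled libraries on the left and the 3 control-labelled libraries on the right. The totals were 166.9 to 170.4 FPKM under the overexpression label and 276.3 to 279.6 FPKM under the control label, and the drug pump, ABCA, organelle ABCB and translation layers were smaller in the overexpression-labelled libraries.

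The drug and organic anion pumps divided into 4 genes that fell and 4 that rose among 8 tested. Over all tested genes, 39.3% were called lower and 37.5% higher. ABCC2 (ENSG00000023839, chromosome 10, 99782640 to 99852594, plus strand) encodes MRP2, the apical exporter of glutathione and glucuronide conjugates. It measured 0.203, 0.177 and 0.207 FPKM under the overexpression label, against 27.6, 22.9 and 29.2 FPKM under the control label. All 3 control-labelled libraries were high and the ranges lay far apart. The difference rested on 82 reads under the overexpression label and 10384 under the control label, and came to 135.9-fold lower, or -4.52 ± 0.095 (SE) on the log2(FPKM + 1) scale, with an adjusted p of 8.64e-08 by limma.

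ABCG2 (ENSG00000118777, chromosome 4, 88090264 to 88231322, minus strand), the breast cancer resistance protein gene, encodes an apical pump of urate, porphyrins and many drugs. It measured 0.0675, 0.0768 and 0.0999 FPKM under the overexpression label, against 5.81, 5.79 and 7.20 FPKM under the control label. With 22 reads under the overexpression label and 1579 under the control label, it was 77.0-fold lower (-2.74 ± 0.095 SE on the log2 scale, limma adjusted p = 6.81e-07). ABCB1, the gene of P-glycoprotein, measured 0.654, 0.753 and 0.665 FPKM under the overexpression label, against 2.43, 2.71 and 3.43 FPKM under the control label, and was 4.13-fold lower (limma adjusted p = 6.90e-05). The groups did not overlap, although the level was low in both. ABCC1, which encodes MRP1, a basolateral exporter of glutathione conjugates and leukotriene C4, was 2.54-fold lower. It measured 14.3, 13.9 and 14.99 FPKM under the overexpression label, against 35.9, 33.5 and 40.0 FPKM under the control label (-1.28 ± 0.075 SE on the log2 scale, limma adjusted p = 7.12e-06).

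ABCC4 (ENSG00000125257, chromosome 13, 95019829 to 95301475, minus strand) rose most. It encodes MRP4, which exports cyclic nucleotides, prostaglandins and nucleotide analogues. Its values were 6.62, 6.15 and 6.30 FPKM under the overexpression label, against 2.25, 2.32 and 2.35 FPKM under the control label. Both groups were tight, and ABCC4 was 2.76-fold higher (1.15 ± 0.058 SE on the log2 scale, limma adjusted p = 3.62e-06). ABCC10, which encodes MRP7, a transporter of taxanes, measured 4.27, 3.62 and 3.91 FPKM under the overexpression label, against 2.19, 1.92 and 2.02 FPKM under the control label, and was 1.92-fold higher (limma adjusted p = 1.70e-04).

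ABCC3 and ABCC5 changed little, close to the threshold. ABCC3, which encodes MRP3, the basolateral exporter of glucuronides and bile salts, measured 21.6, 22.8 and 22.9 FPKM under the overexpression label, against 17.3, 15.9 and 21.4 FPKM under the control label. Control-labelled replicate 3 came close to the lowest overexpression-labelled value, and ABCC3 was 1.23-fold higher (limma adjusted p = 0.036). This call was lost when any library but control-labelled replicate 3 was left out (0.0672 to 0.106) and with no filter on low genes (0.0697). ABCC5, which encodes the cyclic nucleotide exporter MRP5, measured 7.19 ± 0.28 FPKM under the overexpression label and 6.03 ± 0.70 FPKM under the control label (SD, n = 3 each; 1.19-fold higher, limma adjusted p = 0.0481). Leaving out any library except control-labelled replicate 2 gave adjusted p-values (limma) of 0.0671 to 0.142 for ABCC5, and a pseudocount of 0.1 FPKM, no filter, TPM, no trend and the replicate block gave 0.052 to 0.0894. ABCC10 and ABCC4 kept their calls in every setting that tested them.

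The make-up of pump mRNA differed accordingly. Of the summed FPKM of the 11 pump genes, which was 55.1 to 57.3 FPKM under the overexpression label and 92.3 to 111.4 FPKM under the control label, ABCC3 took 40.1 ± 1.3% under the overexpression label and 17.9 ± 1.1% under the control label. ABCC2 took 0.349 ± 0.024% under the overexpression label and 26.2 ± 1.4% under the control label. The share of ABCG2 was 0.145 ± 0.027% under the overexpression label and 6.18 ± 0.34% under the control label. That of ABCC4 was 11.4 ± 0.48% under the overexpression label and 2.29 ± 0.20% under the control label (SD, n = 3 each). The share of ABCC1 was 25.7 ± 0.50% under the overexpression label and 36.0 ± 0.24% under the control label (SD, n = 3 each). These shares are a description and were not tested.

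**Figure D2:**
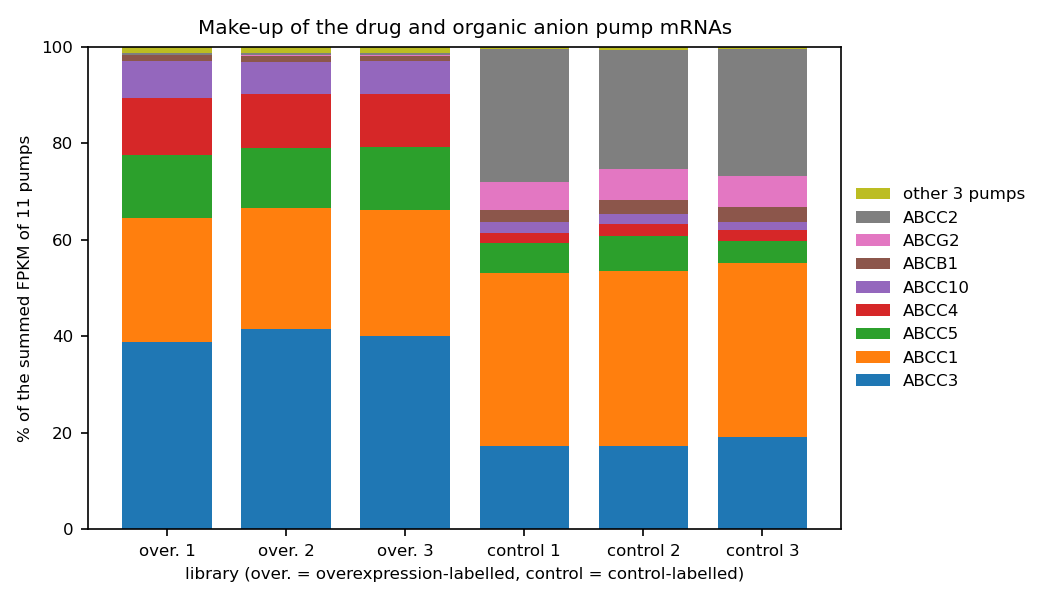
Share of the summed FPKM of 11 drug and organic anion pumps (vertical axis, percent) taken by each gene in each library, with the overexpression-labelled libraries on the left. ABCC3 holds 40.1% under the overexpression label, where ABCC2 and ABCG2 hardly show, and ABCC2 makes up 26.2% and ABCG2 6.18% under the control label.

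The other 3 pump genes stayed under a mean of 1 FPKM. ABCC6, which is mutated in a disease of soft tissue calcification, had 249 reads under the overexpression label and 183 reads under the control label, and may share reads with its pseudogene copies. ABCC11, which encodes a pump known from earwax and sweat glands, had 8 reads under the overexpression label and 18 under the control label. ABCC12 had 19, 11 and 12 reads under the overexpression label and 0 in every library under the control label, at least 13.1-fold higher when the group at 0 is given 3 reads in all. Its neighbour ABCC11 lies 10891 bases away on the same strand of chromosome 16. The groups overlapped for ABCC11.

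**Figure D3:**
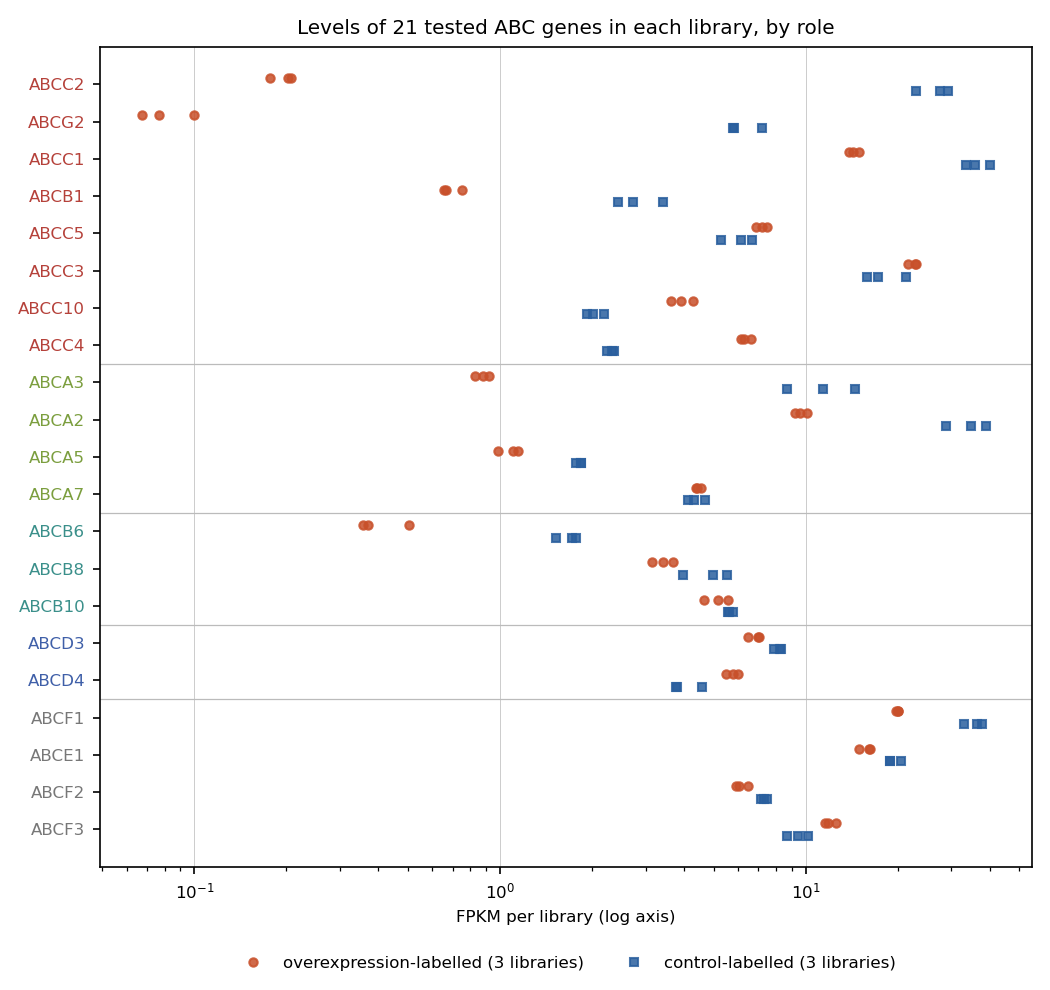
FPKM in each library (horizontal log axis) of 21 tested ABC genes, with overexpression-labelled libraries as circles above control-labelled libraries as squares, and gene names coloured by role. ABCC2 and ABCG2 lie under 0.3 FPKM in every overexpression-labelled library, and ABCA7 and ABCB10 overlap between the groups.

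Among the ABCA lipid transporters, 3 of 4 tested genes fell and 0 rose. The shares over all tested genes were 39.3% lower and 37.5% higher. ABCA3 (ENSG00000167972, chromosome 16, 2275881 to 2340746, minus strand) loads phospholipid into the lamellar bodies of lung surfactant cells. It measured 0.828, 0.922 and 0.882 FPKM under the overexpression label, against 11.4, 14.6 and 8.68 FPKM under the control label. The control-labelled values varied, but the lowest was well above the other group. ABCA3 was 13.1-fold lower (-2.71 ± 0.16 SE on the log2 scale, limma adjusted p = 8.80e-06). ABCA2, a lipid transporter of endosomes and lysosomes that is abundant in the nervous system, measured 9.21, 9.58 and 10.1 FPKM under the overexpression label, against 34.9, 39.1 and 28.9 FPKM under the control label. It was 3.56-fold lower (-1.72 ± 0.11 SE on the log2 scale, limma adjusted p = 1.08e-05). ABCA5, a lysosomal member, measured 1.08 ± 0.083 FPKM under the overexpression label and 1.82 ± 0.037 FPKM under the control label (SD, n = 3 each), 1.69-fold lower (limma adjusted p = 1.19e-03). ABCA7, a lipid transporter linked to phagocytosis, measured 4.45 ± 0.081 FPKM under the overexpression label and 4.38 ± 0.29 FPKM under the control label (SD, n = 3 each). Its log2 difference of 0.02 (SE 0.063, limma adjusted p = 0.766) was not past the threshold, except with array weights (0.0315).

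The remaining 7 ABCA genes averaged under 1 FPKM over the 6 libraries. ABCA13 had 0, 5 and 3 reads under the overexpression label, against 519, 605 and 310 reads under the control label, a 193.9-fold lower level with a 95% counting interval of 97.4 to 446. It averaged 0.00777 FPKM under the overexpression label and 1.51 FPKM under the control label, and its mean over all libraries, 0.757 FPKM, kept it out of the test. ABCA4, the retinal transporter of Stargardt disease, had 29 reads under the overexpression label and 213 under the control label (7.85-fold lower, 95% counting interval 5.33 to 12.1). ABCA12, which carries lipid to the skin barrier, had 44 reads under the overexpression label and 11 under the control label (3.72-fold higher, 95% counting interval 1.89 to 8.0). ABCA8 had 0 reads under the overexpression label and 11 under the control label, at least 3.94-fold lower by the floor of 3 reads. ABCA6, ABCA9 and ABCA10 had 0 reads in all 6. They lie together with ABCA8 and ABCA5 on the minus strand of chromosome 17, and ABCA5 was the 1 gene of these 5 that entered the test.

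**Figure D4:**
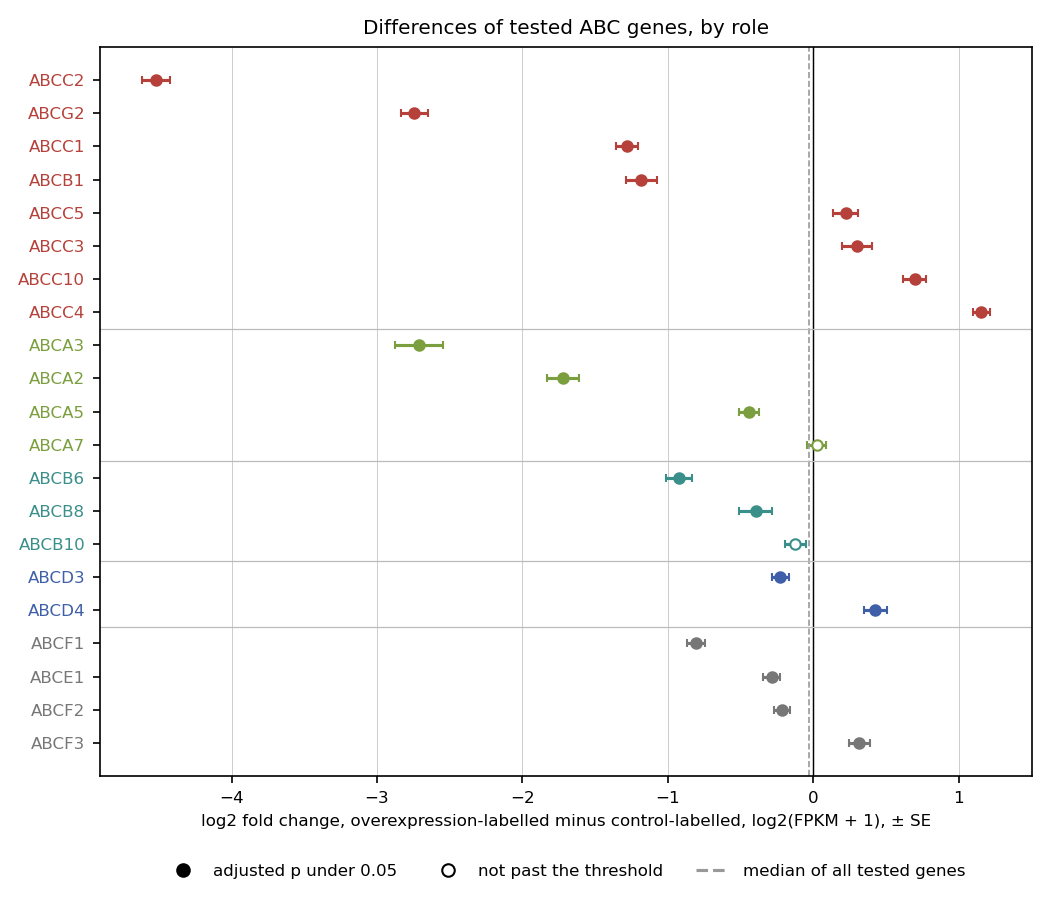
Log2 fold change on the log2(FPKM + 1) scale (horizontal axis, overexpression-labelled minus control-labelled, bars ± SE) of 21 tested ABC genes, grouped by role, with filled circles for genes past the threshold and a dashed line at the median of all tested genes (-0.03). ABCC2 lies at -4.52, ABCG2 at -2.74 and ABCA3 at -2.71, while the highest value is 1.15 for ABCC4.

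Transporters of mitochondria in the B family fell in 3 of 4 tested cases, and 0 rose. For all tested genes the shares were 39.3% lower and 37.5% higher. ABCB6, a porphyrin transporter, measured 0.358, 0.370 and 0.503 FPKM under the overexpression label, against 1.77, 1.72 and 1.53 FPKM under the control label (4.08-fold lower, limma adjusted p = 7.40e-05), but 54.7% of its length is shared with the exons of another annotated gene on the same strand, so reads may be split. ABCB8, a mitochondrial inner membrane transporter, measured 3.42 ± 0.28 FPKM under the overexpression label and 4.84 ± 0.79 FPKM under the control label (SD, n = 3 each; 1.42-fold lower, limma adjusted p = 0.016). That call was lost without overexpression-labelled replicate 1 (adjusted p by limma of 0.0607), without control-labelled replicate 1 (0.0541) and with FPKM rescaled to summed reads (0.0519, or 0.0654 without mitochondrial reads). ABCB10, which takes part in haem synthesis, measured 5.13 ± 0.47 FPKM under the overexpression label and 5.66 ± 0.11 FPKM under the control label (SD, n = 3 each; limma adjusted p = 0.16) and did not pass the threshold, except with array weights (0.0408).

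The lysosomal peptide transporter gene ABCB9 had 682 reads under the overexpression label and 543 reads under the control label and was not tested, and its exons overlap several genes on the opposite strand. ABCB5 had 0 reads in all 6 libraries. Haem and iron-sulphur genes that work beside these transporters were 6 higher and 11 lower among 21 tested (median log2 fold change -0.29). Over all tested genes, 37.5% were higher and 39.3% lower. GLRX5, which hands on iron-sulphur clusters, was 4.05-fold higher, whereas FECH, the last enzyme of haem synthesis, was 3.58-fold lower and the chaperone gene HSPA9 2.98-fold lower.

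Among peroxisomal and lysosomal members of the D family, 1 of 3 tested genes rose and 1 fell, each by less than 1.5-fold. The counts here and for the partner genes stand beside 37.5% higher and 39.3% lower over all tested genes. ABCD4, which acts in the release of vitamin B12 from lysosomes, rose 1.43-fold, with 6.00, 5.50 and 5.80 FPKM under the overexpression label, against 3.77, 3.78 and 4.58 FPKM under the control label (limma adjusted p = 2.63e-03). ABCD3, a peroxisomal importer of branched-chain acids and bile acid precursors, was 1.19-fold lower, at 6.84 ± 0.33 FPKM under the overexpression label and 8.16 ± 0.22 FPKM under the control label (SD, n = 3 each; limma adjusted p = 9.84e-03). With FPKM rescaled to summed reads the adjusted p (limma) of ABCD3 was 0.0598 (0.0989 without mitochondrial reads), and with the reads fitted by voom it was 0.0561. ABCD2, a peroxisomal fatty acid importer, had 0 reads under the overexpression label and 3 under the control label. Peroxisomal partner genes were 7 higher and 4 lower of 15 tested (median 0.11), with CROT 3.38-fold and ACAA1 2.56-fold higher and HSD17B4 1.78-fold lower.

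The translation factors without a membrane part were all expressed, and 3 of 4 fell. Their counts and those of their partner genes stand beside 39.3% lower and 37.5% higher over all tested genes. ABCF1, a factor of translation initiation that binds eIF2 and ribosomes, measured 19.8, 19.99 and 20.07 FPKM under the overexpression label, against 37.8, 36.3 and 33.1 FPKM under the control label. It was 1.79-fold lower (-0.81 ± 0.061 SE on the log2 scale, limma adjusted p = 2.43e-05), with groups that lay wide apart. ABCE1, which splits ribosomes after termination, measured 14.98, 16.24 and 16.1 FPKM under the overexpression label, against 20.5, 18.9 and 18.9 FPKM under the control label (1.23-fold lower, limma adjusted p = 3.99e-03). ABCF2 was 1.19-fold lower and measured 6.15 ± 0.29 FPKM under the overexpression label and 7.30 ± 0.17 FPKM under the control label (SD, n = 3 each; limma adjusted p = 0.0116). The call on ABCF2 was lost with FPKM rescaled to summed reads (limma adjusted p = 0.0745, or 0.126 without mitochondrial reads), with the reads fitted by voom (0.113) and without overexpression-labelled replicate 3 (limma adjusted p = 0.0552), and 45.8% of its length is shared with another annotated gene on its strand. ABCF3 was the member that rose, at 12 ± 0.52 FPKM under the overexpression label and 9.46 ± 0.77 FPKM under the control label (SD, n = 3 each; 1.27-fold higher, limma adjusted p = 5.81e-03). Their partner genes in initiation, termination and ribosome rescue were 4 higher and 10 lower of 17 tested (median log2 fold change -0.23), with EIF3J 2.38-fold, the release factor gene GSPT1 2.06-fold and the rescue factor gene PELO 1.90-fold lower. Only 7 of these partner genes were called lower with quantile scaling, with voom and with FPKM rescaled to summed reads, with or without mitochondrial reads. Without overexpression-labelled replicate 3, 2 of the partner genes were called higher.

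Transporters of bile and sterols were scarce, and 0 of 5 were tested. ABCB4, which moves phosphatidylcholine into bile, had 54, 53 and 50 reads under the overexpression label, against 1, 4 and 2 reads under the control label. This was a 21.1-fold higher level (95% counting interval 9.91 to 52.8), although the mean stayed at 0.379 FPKM under the overexpression label. ABCB1 lies 23197 bases from ABCB4 on the same strand of chromosome 7 and differed in the other direction. ABCG8 had 6, 8 and 7 reads under the overexpression label and 0 under the control label, at least 6.52-fold higher, and ABCG5, with which it forms the sterol exporter of intestine and liver, had 3 reads under the overexpression label and 0 under the control label. The RefSeq starts of ABCG5 and ABCG8 lie 132 bases apart on opposite strands of chromosome 2. At their deposited positions these genes overlap and share 137 exon bases, so reads may be shared. ABCB11, the bile salt export pump gene, had 0 reads under the overexpression label and 3 under the control label. ABCG4, a sterol exporter of the brain, had 22 reads under the overexpression label and 17 under the control label, with groups that overlapped.

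The sulphonylurea receptors, which regulate potassium channels and do not pump, were also low. ABCC8, the receptor of the insulin-secreting beta cell, had 32, 28 and 44 reads under the overexpression label, against 2, 1 and 5 reads under the control label (12.1-fold higher, 95% counting interval 5.93 to 28.8). ABCC9, the receptor of heart and vessel muscle, had 35 reads in each group. The channel partners KCNJ11 and KCNJ8 had 224 and 62 reads under the overexpression label, against 23 and 0 reads under the control label, and neither was tested. Over the 20 members that were not tested, 16 had some reads. Of these, 8 were higher with groups that did not overlap, which held for 20.2% of all genes with some reads under a mean of 1 FPKM, and 3 were lower, which held for 13.3%. Those shares cover genes of every biotype, whereas the members are protein-coding. The 8 include ABCG5, with 3 reads under the overexpression label and 0 under the control label. They also include ABCB9 and ABCC6, which were only 1.17-fold and 1.27-fold higher.

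**Figure D5:**
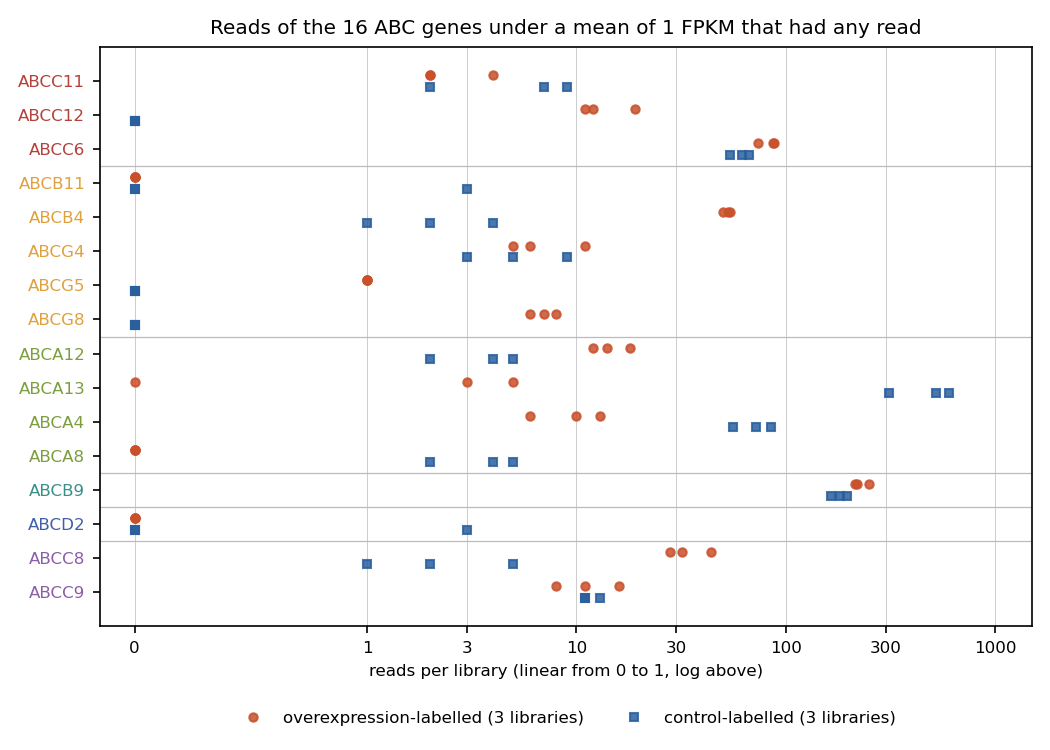
Reads per library (horizontal axis, linear from 0 to 1 and logarithmic above) of the 16 ABC genes under a mean of 1 FPKM that had any read, with overexpression-labelled libraries as circles above control-labelled libraries as squares. ABCB4, ABCC8, ABCC12 and ABCG8 lie to the right under the overexpression label, and ABCA13 and ABCA4 under the control label.

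Genes that act around the pumps were taken from lists. Their counts stand beside 37.5% higher and 39.3% lower over all tested genes. Transcription factors and sensors known to control ABC genes were 5 higher and 11 lower of 16 tested (median log2 fold change -0.80). HNF4A, a factor of gut and liver epithelium, measured 5.84, 5.72 and 5.65 FPKM under the overexpression label, against 0.654, 1.04 and 0.409 FPKM under the control label, and was 8.16-fold higher (limma adjusted p = 1.51e-05). AHR, the receptor of aromatic hydrocarbons, was 3.84-fold lower and its partner ARNT 3.93-fold lower. NR1I2, the xenobiotic receptor PXR, had 1 read under the overexpression label and 4 reads under the control label, and was chosen for mention after its values were seen. Genes of glutathione synthesis and conjugation, which make substrates of the MRP pumps, were 5 higher and 8 lower of 15 tested (median -0.49). GSTM3, a glutathione transferase gene, had 6 reads under the overexpression label and 11072 under the control label. GGT1, which breaks glutathione down outside the cell, was 68.0-fold lower, and GCLC, the rate-limiting enzyme of glutathione synthesis, 4.34-fold lower. Other carriers of drugs and organic ions were 1 higher and 8 lower of 10 tested (median -0.55), with the efflux carrier gene SLC47A1 23.8-fold, the cation carrier gene SLC22A3 15.3-fold and the anion carrier gene SLCO3A1 10.3-fold lower. The higher one was SLC22A5, a carnitine carrier gene chosen for mention after its values were seen (1.18-fold, limma adjusted p = 0.0412), and its call was lost when any library but control-labelled replicate 2 was left out (0.0623 to 0.129), and with no filter, TPM, quantile scaling and the replicate block (0.0518 to 0.172). Beside the median of -0.03 over all tested genes, these lists describe the same libraries and received no test of their own.

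ABC proteins with other symbols gave 2 lower genes of 2 tested, beside 39.3% lower over all tested genes. TAP1 and TAP2, which form the peptide transporter of antigen presentation, measured 7.76 and 4.79 FPKM under the overexpression label, against 10.5 and 6.62 FPKM under the control label. They were 1.35-fold (limma adjusted p = 0.0186) and 1.38-fold lower (limma adjusted p = 2.03e-03). The call on TAP1 was lost with FPKM rescaled to summed reads (limma adjusted p = 0.0643, or 0.0849 without mitochondrial reads), with the reads fitted by voom (0.0507) and without overexpression-labelled replicate 2 or 3 or control-labelled replicate 1 (0.0616 to 0.0658). CFTR, the chloride channel of the C family, had 6 reads under the overexpression label and 36 reads under the control label.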

How the data were processed

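Per the labels' protocols, RNA of SW480 cells was extracted with an RNeasy kit and made into libraries with a SMARTer mRNA kit. The authors deposited 1 table of FPKM values with the length of each gene. Which aligner and counter made them, and whether strand was used, is not given in the sources used here. Mouse build mm10 is named in the submitters' processing notes, but all 58735 gene entries matched human GENCODE release 29 (GRCh38) in identifier, position and symbol. Each value was multiplied by gene length and set against the least nonzero product of its library, and this was whole within 0.001 read for 100% of values above 0, which gave reads. The totals behind the deposited FPKM were not these reads. They were 1.04 to 1.05 times the summed reads under the overexpression label and 0.958 to 0.995 times under the control label. Libraries of a group differed by more than sampling noise, so all 6 were kept. Over genes with at least 10 reads in a pair, chi-square per gene was 2.1 to 2.4 under the overexpression label and 7.4 to 32.9 under the control label. The median SD on the log2(FPKM + 1) scale was 0.0592 under the overexpression label and 0.128 under the control label. The main fit used the same variance of a gene for both groups.

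Groups were compared two-sided in limma 3.58.1 under R 4.3.3, on log2(FPKM + 1) values, with a trended prior variance and no covariate. Genes averaging 1 FPKM or more entered, the Benjamini-Hochberg adjustment ran over all of them, and the threshold was 0.05. Fold changes on this scale understate changes of low genes. Printed folds divide the group means of FPKM, bounds use 3 reads over the group, and counting intervals (exact binomial, 95%) cover counting error only, as reads are not independent molecules. The steps were run on simulated data in which few genes differed and both groups had the same spread. These data differ from that setting in both respects, so the simulation does not vouch for the calls. Upstream sequences are RefSeq's. Genes with close copies or overlapping exons may share reads.

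Counts and sums cover all members, but single results of 2 tested members are not reported here. Every other member could be named, and from each list up to 3 genes past the threshold by size of change, or the 2 of highest level where none passed. Members and lists were chosen with earlier results of these data known. CFTR, NR1I2, SLC22A5 and the pseudogenes were chosen for mention with their values in view. The alternatives varied the pseudocount, filter, scaling, variance model, replicate block and libraries included.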

Additional observations from a re-analysis of the deposited data

How the results depend on the processing

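Of 21 tested ABC genes, 14 kept their direction and their side of the threshold in each of the 18 other settings that tested them, and 7 did not in at least 1. The 7 were ABCA7, ABCB8, ABCB10, ABCC3, ABCC5, ABCD3 and ABCF2, each with a difference under 1.5-fold. The direction reversed for 1, which was not past the threshold: ABCA7 lay at -0.011 without control-labelled replicate 1 and at 0.064 without control-labelled replicate 2. Raising the filter to a mean of 5 FPKM left 14 members tested, with 3 higher and 9 lower, while genes called over all genes tested came to 6218, as fewer genes were tested. With no filter 39 members were tested, 9 higher and 16 lower. Leaving out each library in turn gave 4 to 6 members higher, 12 to 14 lower and 9794 to 11144 genes called. With FPKM rescaled to summed reads, with or without mitochondrial genes (the last chosen after seeing the data), 6 were higher and 11 lower, and with voom on the reads 6 and 12. Deviations of same-numbered libraries showed little correlation (-0.022 to 0.007). Such values cannot show how the libraries were prepared, and the labels do not say whether the numbers pair them. With the replicate block, 5 members were higher, 14 were lower and 10506 genes were called, ABCC5 being lost (limma adjusted p = 0.0894). Genes with 22 or fewer reads in a group, such as ABCG2, are limited by depth in the size of their fold.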

Other observations

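The table held 16 further rows with an ABC symbol that are not protein-coding, 14 pseudogenes and 2 antisense genes, of which 9 had 0 reads in all 6 libraries. The ABCC6 pseudogenes were the most abundant. ABCC6P1 had 38, 42 and 35 reads under the overexpression label, against 7, 7 and 13 reads under the control label (3.97-fold higher, 95% counting interval 2.59 to 6.28). ABCC6P2 had 18, 27 and 30 reads under the overexpression label, against 3, 8 and 14 reads under the control label (2.81-fold higher, 95% counting interval 1.76 to 4.59). ABCC6 itself had 249 reads under the overexpression label and 183 reads under the control label, a 1.27-fold higher level (95% counting interval 1.04 to 1.54). ABCA11P had 62 reads under the overexpression label and 32 reads under the control label, and ABCA17P had 37 reads under the overexpression label and 38 under the control label. These pseudogenes were not tested, and how the counting divided reads between ABCC6 and its copies is not given in the sources used here.

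Neighbouring members did not always differ in the same direction. ABCC5 and ABCF3, 168007 bases apart on chromosome 3, were both higher, and ABCB8 and ABCF2, 164707 bases apart on chromosome 7, were both lower. The calls on ABCC5, ABCB8 and ABCF2 were each lost in some settings, and ABCF2 shares 45.8% of its length with another annotated gene. ABCC1 was lower, while ABCC6, 5853 bases away on the opposite strand of chromosome 16, was untested and had more reads under the overexpression label.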
